A study of Mus musculus with 6 samples.

Results

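A group of 10 imprinted genes, Igf2, H19, Peg3, Meg3, Dlk1, Snrpn, Plagl1, Mest, Ndn and Peg10, was followed in RNA-seq libraries of mouse retina at postnatal day 21 (P21). Each was taken as the row of the deposited table that carries its symbol, so the group is 10 of 24062 symbols. All 10 passed the filter on low counts, which kept 16904 genes. Libraries came from 3 Rb1/p107/Hells retinae (TKO) and 3 Rb1/p107 retinae (DKO) of mice labelled C57BL/6, and the study's methods name the substrain C57BL/6N. Both genotypes carried Chx10-Cre, a Cre driver active in retinal progenitor cells, together with a floxed Rb1 gene and a constitutive null allele of Rbl1, which encodes p107. TKO mice also carried a floxed Hells gene, which encodes a chromatin remodeling helicase needed for normal DNA methylation. Chx10-Cre acts as a mosaic, so each retina also held cells that had not recombined. No wild-type or Cre-negative retina was analysed here, so each difference is between retinae of mice with the Rb1 and p107 alleles in common. The comparison asks whether loss of Hells in such retinae changed the RNA of imprinted genes.

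Imprinted genes are transcribed mainly from the copy inherited from a particular parent. The choice is set by DNA methylation laid down in the egg or sperm at imprinting control regions, and it is kept through cell division by the maintenance methyltransferase DNMT1 and its partner UHRF1. Many imprinted genes lie in clusters that share a control region, and many act on fetal growth, the placenta and the brain. Here the counts add up both parental copies, so they give the amount of RNA and not the copy it came from.

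Igf2, Peg10 and Plagl1 were lower in TKO than in DKO retinae, by fitted folds of 3.92, 2.96 and 1.49 (edgeR's quasi-likelihood test, adjusted p = 0.00903, 0.00702 and 0.0269). These are 3 of the 10 genes, all in the same direction, where 9.2% of all genes tested were lower and 7.35% higher at an adjusted p of at most 0.05. Igf2 and Peg10 also met the criteria that the study set for differential expression, which add a log2 fold change of at least 1 in size and a mean of at least 10 normalized counts. The background for lower genes by those criteria was 4.38%. Without overlap between the 3 TKO and the 3 DKO values, 6 genes were lower in TKO retinae (Igf2, H19, Peg10, Plagl1, Dlk1 and Snrpn), against 20.6% of all genes, and 0 were higher, against 18% of all genes. Peg3, Mest, Meg3 and Ndn overlapped between the genotypes. The median log2 fold change (TKO minus DKO) was -0.48 over the 10 genes and -0.01 over all genes tested. In bulk retina, fewer cells that express a gene and less RNA per cell cannot be told apart.

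**Figure D1:**
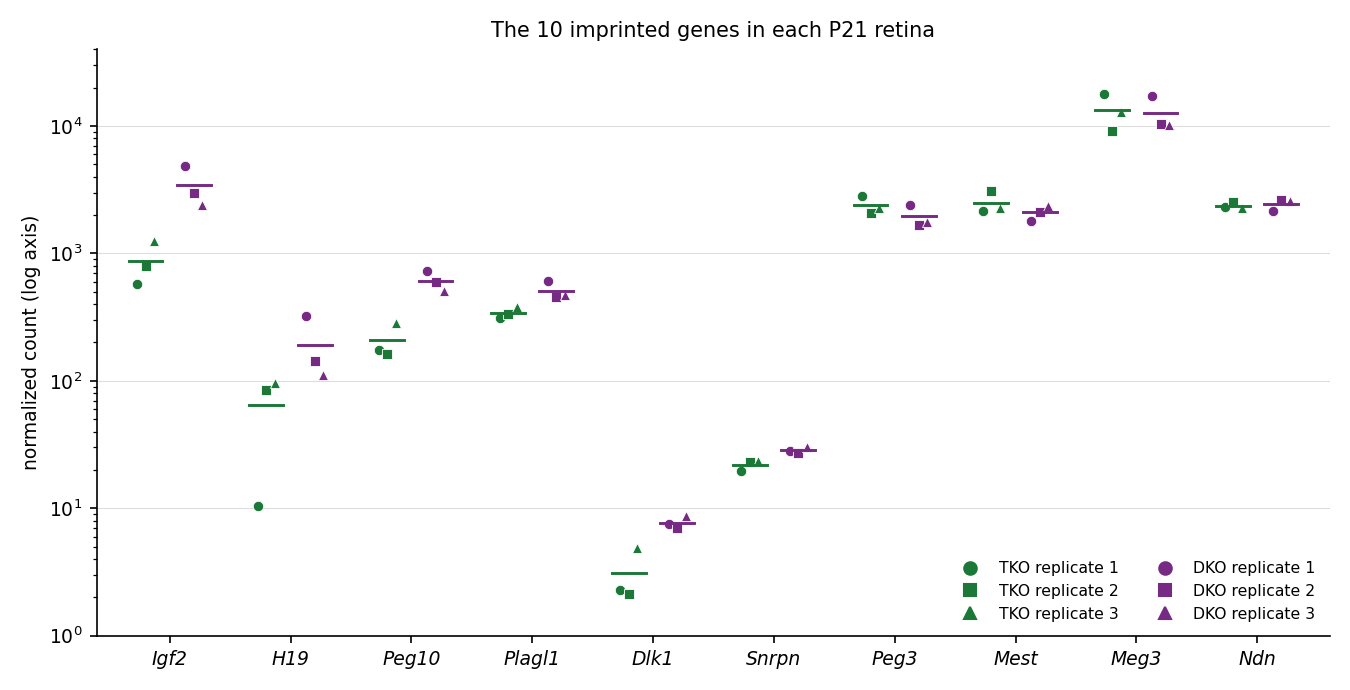
Normalized counts (log axis) of the 10 imprinted genes in each of 3 TKO (green) and 3 DKO (purple) retinae, with a marker shape for each replicate number and a bar at each group mean. Igf2, Peg10 and Plagl1 lie lower in every TKO retina than in any DKO retina, and H19 spans the widest fold range within the TKO group, from 10.3 to 96.9.

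Library totals ranged from 10343907 to 14203098 counts. Hells followed the labels, with 60.8, 68.4 and 83.4 normalized counts in TKO and 678, 523 and 395 in DKO replicates 1 to 3 (log2 fold change -2.91, edgeR adjusted p = 0.00359). This check of the labels is indirect, because the counts cover the whole gene and not only the floxed exon. Hells is also a target of the RB/E2F pathway in the study, and the markers of dividing cells had log2 fold changes from -3.21 to -1.27. Rb1, floxed in both genotypes, had a log2 fold change of 0.34 (adjusted p = 0.0388), and Rbl1 had one of 0.13 (adjusted p = 0.839). Some libraries stood apart in markers of other tissues. DKO replicate 1 had 7788 normalized counts of the collagen gene Col1a1, against 77.0 and 60.4 in the other DKO retinae and at most 41.0 in TKO retinae. Lens markers summed to 3487 in TKO replicate 2, against 602 and 526 in the other TKO retinae and at most 123 in DKO retinae. TKO replicate 1 had the lowest sum of 8 stroma markers, 806, where the other retinae ranged from 1787 to 18906. All 10 rod markers were higher in TKO retinae (adjusted p of at most 0.05), with sums from 365547 to 744679 against 125090 to 237869. All 10 markers of dividing cells were lower, with sums from 1699.5 to 4595 against 9150.3 to 16889.5. Of 8 microglia markers 5 were lower, with sums from 1672 to 2922 against 3330.1 to 5048. No marker of these lists was at 0 in every library.

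Igf2 encodes insulin-like growth factor 2, a fetal growth factor made from the paternal copy in most tissues. It lies on chromosome 7 of GRCm38, minus strand, from 142650766 to 142666816, and H19, a noncoding RNA made from the maternal copy, lies nearby on the same strand from 142575529 to 142578143. Both share a control region upstream of H19 and both host a microRNA. The mature microRNAs that lie in the transcribed regions of these genes are shown because the counts below are of their host genes. The microRNAs themselves were not measured. Sequences are from RefSeq on GRCm38.p6, and capitals mark the seed, bases 2 to 8.
mmu-miR-483-5p (within Igf2): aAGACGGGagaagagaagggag
mmu-miR-483-3p (within Igf2): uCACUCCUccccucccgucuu
mmu-miR-675-5p (within H19): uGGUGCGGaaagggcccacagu
mmu-miR-675-3p (within H19): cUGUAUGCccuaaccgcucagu
The 4 seeds differ from each other.

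Igf2 had 575, 791 and 1254 normalized counts in TKO and 4849, 2989.8 and 2417 in DKO replicates 1 to 3. The highest TKO retina was below the lowest DKO retina. The log2 fold change was -1.97 (standard error 0.326). It passed with each retina left out in turn, and without DKO replicate 1, the library with the most collagen RNA and the most Igf2, it was -1.63 (edgeR adjusted p = 0.0368). Without TKO replicate 2, the library with the most lens RNA, it was -1.90 (adjusted p = 0.0481). Of the exon bases of Igf2, 62.8% are also annotated to another gene model on the same strand, Gm49394, not analysed here. The assignment of Igf2 reads is therefore less certain, and whether equally so in both genotypes was not tested.

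H19 had 10.3, 85.3 and 96.9 normalized counts in TKO and 322, 142 and 111 in DKO replicates 1 to 3. The groups did not overlap, but the gap between 96.9 and 111 was small beside the range within each group. With a log2 fold change of -1.57 (standard error 0.645), close to that of Peg10, H19 did not pass (adjusted p = 0.131 from edgeR and 0.245 from DESeq2). The difference rested in part on 2 retinae, since it fell to -1.07 without TKO replicate 1 and to -0.98 without DKO replicate 1. As a ratio of counts within a library, Igf2 over H19 was 55.7, 9.28 and 12.9 in TKO and 15.1, 21.1 and 21.9 in DKO retinae. The log2 ratio differed by -0.02 between the genotypes, less than the spread within them (exact permutation test, two-sided, p = 1.0, the first of 9 such ratios tested).

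Igf2os, a noncoding RNA transcribed from the opposite strand and starting within Igf2, was the imprinted RNA with the largest difference of those tested at a mean of at least 10 normalized counts. It had 14.9, 30.5 and 54.0 normalized counts in TKO and 369, 250.4 and 207 in DKO retinae, a difference of -3.06 on the log2 scale (standard error 0.396, edgeR adjusted p = 0.00677). Of the exon bases of Igf2os, 1240 (23.2%) are also annotated to genes on the opposite strand, 98 of them to Igf2 and the rest to Gm49394. The strand setting of the counting is not given in the sources used here, so the counts of Igf2os and its ratio to Igf2 are uncertain to that extent. The ratio of Igf2 to Igf2os was 38.5, 25.9 and 23.2 in TKO and 13.1, 11.9 and 11.7 in DKO retinae, without overlap, and the fitted fold was larger for the antisense RNA. For this ratio the exact permutation test gave p = 0.1, the smallest that 3 retinae against 3 allow (0.225 after Benjamini-Hochberg adjustment over the 9 ratios). Ins2, on the other side of Igf2, had 0, 0 and 2 counts as deposited in TKO and 1, 0 and 0 in DKO retinae, too few to be tested.

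The promoters of Igf2 and Plagl1 are shown because both genes passed and because CpG pairs, where mammalian DNA is methylated, are dense in the stretches printed. Of 5 promoter windows held for these genes, those with the most CpG are printed, from 250 bases before to 50 bases after the annotated start (RefSeq, GRCm38.p6). Capitals mark CpG.
Igf2, chr7:142658755-142659054, minus strand: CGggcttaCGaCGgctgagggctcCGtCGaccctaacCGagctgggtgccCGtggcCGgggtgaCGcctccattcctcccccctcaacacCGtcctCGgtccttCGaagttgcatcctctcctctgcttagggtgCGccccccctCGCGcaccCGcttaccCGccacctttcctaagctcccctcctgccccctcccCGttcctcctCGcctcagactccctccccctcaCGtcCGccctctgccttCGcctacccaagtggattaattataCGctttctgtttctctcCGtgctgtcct
Plagl1, chr10:13090582-13090881, plus strand: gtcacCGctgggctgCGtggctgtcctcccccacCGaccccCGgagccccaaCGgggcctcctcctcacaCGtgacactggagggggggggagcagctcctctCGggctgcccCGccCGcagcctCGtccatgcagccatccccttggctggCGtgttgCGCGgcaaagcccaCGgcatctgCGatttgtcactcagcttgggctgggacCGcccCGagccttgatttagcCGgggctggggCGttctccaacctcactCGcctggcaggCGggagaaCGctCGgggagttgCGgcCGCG
The Igf2 window holds 24 CpG and the Plagl1 window 26, where the median over 32851 promoter windows was 7 and the upper quartile 20. ZFP57, a zinc finger protein that holds imprints, binds the hexamer TGCCGC when it is methylated. Searched on both strands, the hexamer was found once in the Plagl1 window, not in the printed Igf2 window, and in 11.6% of all windows. The Igf2 windows not printed held 14, 7 and 2 CpG, and the one with 14 held the hexamer once. Methylation was not measured in these libraries, so the letters describe the sequence alone. In a dot blot for methylated cytosine, the study saw no change in global levels between TKO, DKO and Cre-negative P21 retinae. Such a blot does not show single promoters or control regions.

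Plagl1 encodes a zinc finger transcription factor that slows growth and is made from the paternal copy, and its control region lies at a promoter of its own. It spans 13060504 to 13131694 on chromosome 10, plus strand. It had 311, 337 and 378 normalized counts in TKO and 607, 453 and 471 in DKO replicates 1 to 3. All 3 TKO values were below all 3 DKO values, with the log2 fold change at -0.58 (standard error 0.139). This was the least secure of the 3 calls. Without TKO replicate 1, TKO replicate 2, DKO replicate 1 or DKO replicate 2 the adjusted p from edgeR was 0.0836, 0.0984, 0.0758 and 0.0560, and the log2 fold change ranged from -0.66 to -0.43.

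Peg10 encodes a retrotransposon-derived protein needed for the placenta and is made from the paternal copy. It lies on chromosome 6, plus strand, from 4747306 to 4760517, head to head with Sgce, which encodes epsilon-sarcoglycan and starts at 4747207 on the minus strand. Peg10 had 175, 163 and 283 normalized counts in TKO and 727, 599.7 and 510.3 in DKO replicates 1 to 3. The TKO retinae were all well below the DKO retinae, and the log2 fold change was -1.57 (standard error 0.222). With 1 retina left out it ranged from -1.85 to -1.42 and passed each time.

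Sgce shares the control region with Peg10 and is likewise made from the paternal copy. It had 289, 328 and 367 normalized counts in TKO and 460.2, 580.4 and 445 in DKO retinae, a smaller difference (log2 fold change -0.59, standard error 0.139, edgeR adjusted p = 0.0244). The ratio of Peg10 to Sgce counts was 0.607, 0.497 and 0.773 in TKO and 1.58, 1.03 and 1.15 in DKO retinae, without overlap (exact permutation p = 0.1, the smallest possible, adjusted 0.225). Both genes of this pair passed as lower in TKO retinae, while the difference between their folds did not pass. Of the other genes of the cluster at a mean of at least 10 normalized counts, Pon3 had a log2 fold change of -1.02 (edgeR adjusted p = 0.0665), Casd1 of -0.20, Pon2 of 0.05 and Ppp1r9a of 0.26, and these did not pass with edgeR. Pon3 passed with DESeq2 (adjusted p = 0.0288).

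Dlk1 and Meg3 lie in the same cluster on chromosome 12, Dlk1 on the paternal and Meg3 on the maternal copy. Dlk1 encodes a membrane protein related to Notch ligands. It was near the limit of detection, with 2, 2 and 4 counts as deposited in TKO and 8, 8 and 10 in DKO replicates 1 to 3. Its values did not overlap between the groups, but the log2 fold change of -1.31 (standard error 0.514) did not pass (edgeR adjusted p = 0.118). A filter that asked for 10 counts in every library removed it.

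Meg3, a long noncoding RNA, was at 17924, 9207 and 12888 normalized counts in TKO and 17129.5, 10346 and 10192 in DKO replicates 1 to 3. Replicate 1 was the highest of each genotype, and the spread within a genotype was larger than the difference between them (log2 fold change 0.09, standard error 0.274, edgeR adjusted p = 0.853). The sign of this difference turned when some retinae were left out or when libraries were scaled by total counts alone. Other RNAs of the cluster did not pass either. Rian, a noncoding RNA downstream of Meg3, had a log2 fold change of -0.10, Mirg, a microRNA host, had 0.20, Rtl1 had -0.28 and Dio3, which encodes the deiodinase that inactivates thyroid hormone, had -0.94 (adjusted p = 0.569, 0.688, 0.646 and 0.211). Dio3 was uneven in TKO retinae, at 12.6, 44.2 and 77.3 normalized counts against 76.2, 87.5 and 92.4 in DKO retinae. Neither the ratio of Meg3 to Rian nor that of Meg3 to Mirg differed beyond the spread (exact permutation p = 0.6 and 0.9).

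Snrpn and Ndn lie in the cluster on chromosome 7 whose human counterpart is altered in Prader-Willi and Angelman syndromes. Snrpn encodes a core protein of the spliceosome's small nuclear ribonucleoproteins. It had 19.5, 23.2 and 23.3 normalized counts in TKO and 28.2, 27.1 and 30.2 in DKO replicates 1 to 3, so the groups were close but apart. The log2 fold change was -0.37 (standard error 0.258, edgeR adjusted p = 0.346). Its counts are uncertain, because 27.3% of its exon bases are also annotated to other genes on the same strand. Gm38393 shares all 589 of these bases and Snurf 216 of them. Snurf had no count in any library.

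Ndn encodes necdin, a MAGE family protein of postmitotic neurons. Its difference had the smallest standard error of the 10 genes, with 2306, 2518 and 2288 normalized counts in TKO and 2166, 2625 and 2561 in DKO replicates 1 to 3 (log2 fold change -0.05, standard error 0.0957, edgeR adjusted p = 0.763). Peg12 and Atp10a of this cluster were lower in TKO retinae. Peg12 had 3.44, 7.37 and 17.2 normalized counts against 31.1, 35.9 and 24.2 (log2 fold change -1.71, standard error 0.491, adjusted p = 0.0482), and passed in 2 of the 6 fits with a retina left out. Atp10a, which encodes a phospholipid flippase, had 59.6, 80.0 and 44.2 against 132, 125 and 120.0 (log2 fold change -1.03, standard error 0.226, adjusted p = 0.0199), and passed in 3 of those 6 fits. Magel2, Mkrn3 and Ube3a did not pass, with log2 fold changes of -0.59, -0.15 and 0.11.

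Peg3, a zinc finger gene made from the paternal copy, and Mest, which encodes a predicted hydrolase of the same parental origin, did not pass and had fitted differences above 0. Peg3 had 2845, 2076 and 2286 normalized counts in TKO and 2410.2, 1659.9 and 1774 in DKO replicates 1 to 3. The log2 fold change of 0.30 (standard error 0.164) did not pass (edgeR adjusted p = 0.236), and DKO replicate 1 lay within the TKO range. Usp29, which starts next to Peg3 on the opposite strand, had a log2 fold change of -0.24 (adjusted p = 0.202), and the ratio of Peg3 to Usp29 did not overlap between the genotypes, from 2.84 to 4.44 in TKO and from 2.07 to 2.503 in DKO retinae (exact permutation p = 0.1, the smallest possible, adjusted 0.225). Zim3 and Zim1 of this cluster had log2 fold changes of -0.19 and -0.09 and did not pass (edgeR adjusted p = 0.410 and 0.903).

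Mest had 2147, 3062 and 2273 normalized counts in TKO and 1808, 2130.1 and 2354 in DKO replicates 1 to 3, so the groups overlapped (log2 fold change 0.25, standard error 0.152, edgeR adjusted p = 0.285). Mest and Copg2, its neighbour on the opposite strand, overlap over 23.1% of the exon bases of Mest. Copg2 had a log2 fold change of 0.15 (adjusted p = 0.207), and the ratio of the pair did not differ beyond the spread (exact permutation p = 0.6).

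**Figure D2:**
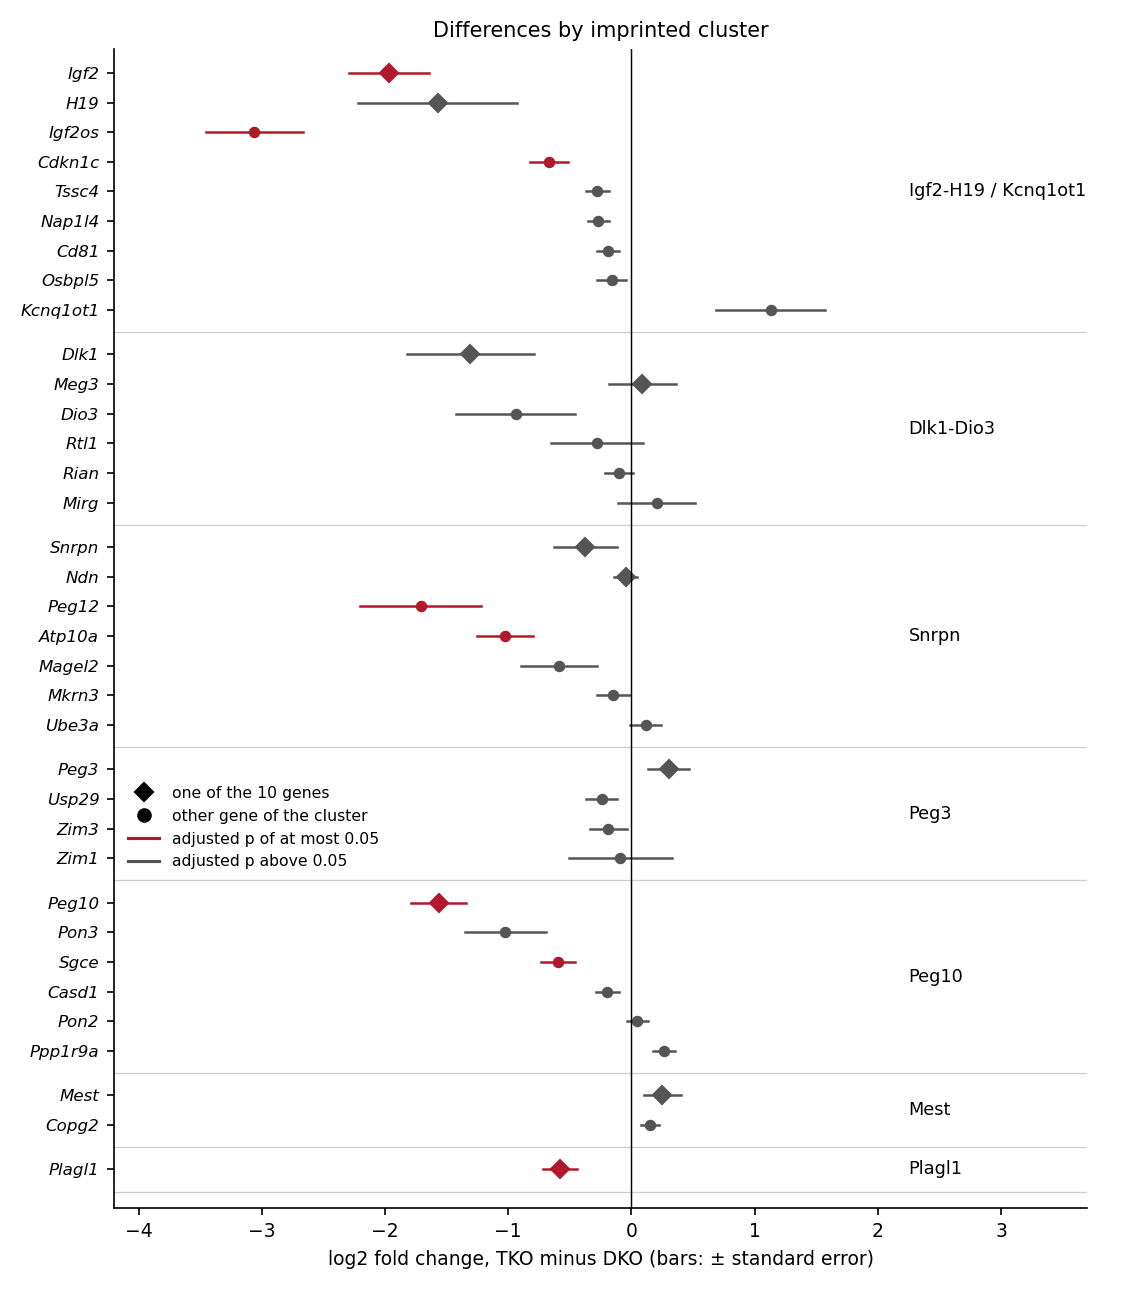
Log2 fold change (TKO minus DKO) with its standard error for the 10 imprinted genes (diamonds) and the other genes of their clusters, the Kcnq1ot1 cluster included, with a mean of at least 10 normalized counts (circles). Red marks an adjusted p of at most 0.05, and the 8 red genes, Igf2, Igf2os, Cdkn1c, Peg12, Atp10a, Peg10, Sgce and Plagl1, lie to the left of 0.

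Levels were compared between genes only as counts per 1e6 counts and per kilobase of exon. All exon bases were used, also those of Igf2 and Snrpn that are shared with other gene models. The places of these genes in the order are therefore less certain. In DKO retinae Meg3 (54.9 ± 17.3, SD, n = 3), Ndn (52.4 ± 5.31), Igf2 (47.2 ± 17.6) and Mest (42.0 ± 5.51) were the highest, and each overlapped with the next in this order. Peg3 (11.6 ± 2.40) stood apart below them, followed by Peg10 (7.26 ± 1.29), H19 (6.15 ± 3.67) and Plagl1 (5.16 ± 0.854), which overlapped in turn. Snrpn (1.04 ± 0.0572) and Dlk1 (0.108 ± 0.0116) were the lowest, each apart from its neighbours. In TKO retinae Meg3 (58.3 ± 19.1), Ndn (50.7 ± 2.73) and Mest (49.97 ± 9.94) again overlapped at the top. Igf2 was at 12.1 ± 4.80 there, a level that overlapped with that of Peg3 (14.3 ± 2.36).

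Of 65 other imprinted genes that were listed, 54 could be tested. At an adjusted p of at most 0.05, 6 of the 54 were lower and 4 were higher in TKO retinae (edgeR), shares near the 9.2% and 7.35% over all genes, and their median log2 fold change was -0.10. In the clusters that hold the 10 genes, 21 other genes were tested, of which 4 were lower and 0 higher, and in the Kcnq1ot1 cluster next to H19, 9 were tested, of which 1 was lower. Snhg14, Zim2 and Zfp264 were not analysed here.

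Nnat, which encodes neuronatin, a small membrane protein of developing brain, had the smallest adjusted p among the other imprinted genes. It is made from the paternal copy and lies within an intron of Blcap, on the opposite strand, at 157560078 to 157562522 on chromosome 2. Nnat had 419.7, 537 and 888 normalized counts in TKO and 3501, 3432 and 2293 in DKO replicates 1 to 3. The highest TKO value was well below the lowest DKO value, and the log2 fold change was -2.32 (standard error 0.277, edgeR adjusted p = 0.00554). It passed with each retina left out, as did Igf2os. Blcap itself had a log2 fold change of 0.09 (adjusted p = 0.497), and the ratio of Nnat to Blcap ranged from 0.298 to 0.658 in TKO and from 1.63 to 2.72 in DKO retinae (exact permutation p = 0.1, adjusted 0.225).

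Cdkn1c encodes p57, a cyclin-dependent kinase inhibitor made from the maternal copy in the cluster next to H19. It had 175, 215 and 211 normalized counts in TKO and 366, 323 and 268 in DKO retinae (log2 fold change -0.67, standard error 0.151, edgeR adjusted p = 0.0217). Kcnq1ot1, the noncoding RNA that silences Cdkn1c on the paternal copy, was at 398, 120.0 and 124 in TKO and 107.3, 89.3 and 96.7 in DKO retinae, and its log2 fold change of 1.13 did not pass with edgeR (adjusted p = 0.117) but passed with DESeq2 (adjusted p = 0.0289). TKO replicate 1 stood apart from the other 5 retinae. In the same cluster Nap1l4, Tssc4, Cd81 and Osbpl5 had log2 fold changes from -0.28 to -0.16 and did not pass.

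The 4 imprinted genes that were higher in TKO retinae differed by less than 1.5 times. Trappc9, which encodes a subunit of a vesicle tethering complex, had a log2 fold change of 0.49 (edgeR adjusted p = 0.0124), and Peg13, a noncoding RNA inside it, had one of 0.44 (adjusted p = 0.0229). Their ratio did not differ beyond the spread (exact permutation p = 0.6). Impact, a regulator of translation, was at 3169.7, 3422 and 3402 normalized counts in TKO and 2581, 2641 and 2576 in DKO retinae (log2 fold change 0.36, adjusted p = 0.0168). Commd1, which takes part in copper handling, was at the threshold (log2 fold change 0.31, edgeR adjusted p = 0.0490) and did not pass with DESeq2. Of these 4, only Trappc9 passed when libraries were scaled by total counts alone, a scaling that moves the median of all genes to -0.17.

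**Figure D3:**
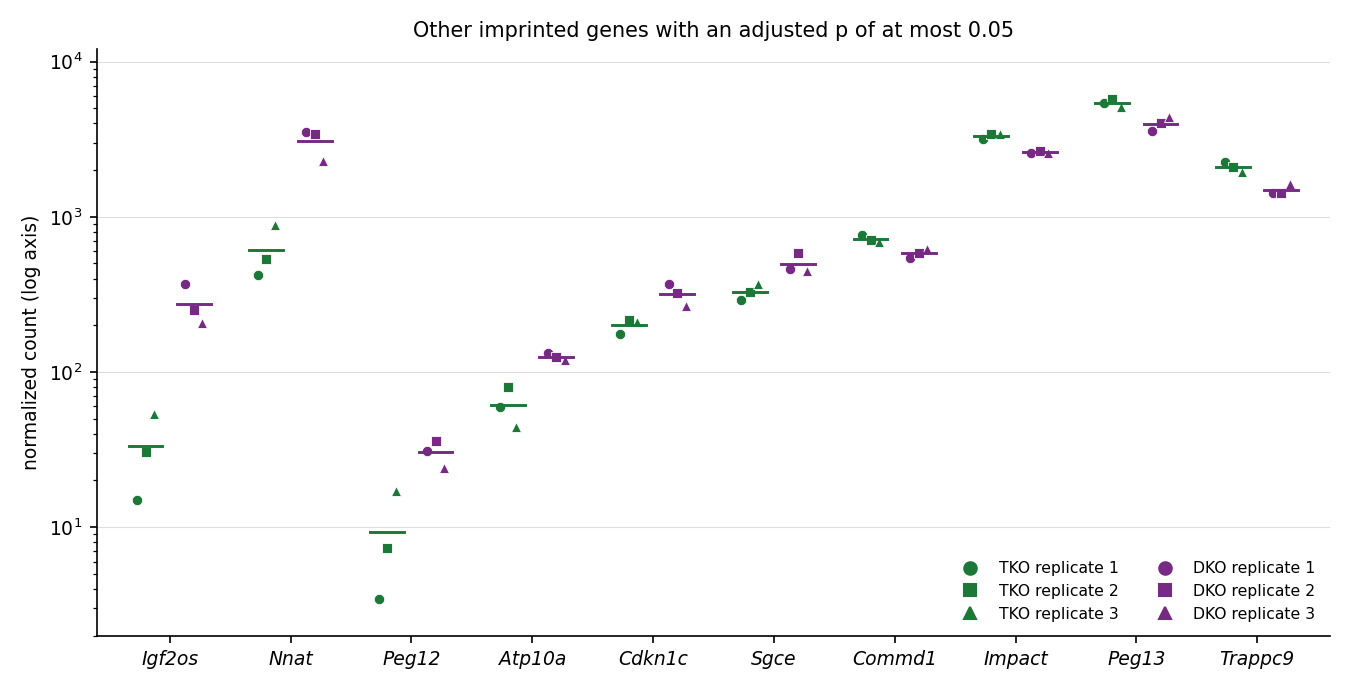
Normalized counts (log axis) of the 10 other imprinted genes with an adjusted p of at most 0.05 in each of 3 TKO (green) and 3 DKO (purple) retinae, ordered by log2 fold change from -3.06 to 0.49, with bars at group means. In each of the 10 the groups do not overlap, and Igf2os and Nnat are the furthest apart. The 10 were drawn for having passed, which makes such a gap likely. Of all 54 tested, 11 were lower and 10 higher without overlap, against 20.6% and 18% of all genes.

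The order of the 6 retinae was the same for Igf2, H19, Igf2os and Nnat: lowest in TKO replicate 1, then TKO replicates 2 and 3, then DKO replicates 3, 2 and 1. Mki67, a marker of dividing cells, had this order too, with 166, 327 and 784 normalized counts in TKO and 3514, 2157 and 1644 in DKO replicates 1 to 3. The summed markers of dividing cells followed it as well. Of all genes tested, 3.38% (572) stood in this order. A gene can do so only if it is lower in TKO retinae without overlap, as 3483 genes were. Igf2, H19, Igf2os and Nnat were already of that class. Peg10, Plagl1, Dlk1, Snrpn, Sgce, Cdkn1c, Peg12 and Atp10a, whose groups also did not overlap, had other orders within a genotype. Among imprinted genes, the order was looked up only for those named here and for Peg3, Meg3, Mest and Ndn, which overlapped. The 8 stroma markers, from tissue in which Igf2 and H19 are known to be made, had sums of 806, 1787 and 3345 in TKO and 18906, 3210.4 and 2683 in DKO retinae, which overlapped between the genotypes. All 8 had a fitted log2 fold change below 0, with a median of -1.19 and a lowest value of -6.40, that of Col1a1. At an adjusted p of at most 0.05, 0 of the 8 passed with edgeR and 0 with DESeq2, beside 16.6% and 19.6% of all genes. With edgeR, 1 had an unadjusted p under 0.05, beside 33.1% of all genes. With 8 genes and the uneven DKO replicate 1, these counts say little about stroma in either direction. The part of dividing cells, of stroma and of the share of rods in the differences of Igf2, H19, Peg10 and Nnat was not tested.

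**Figure D4:**
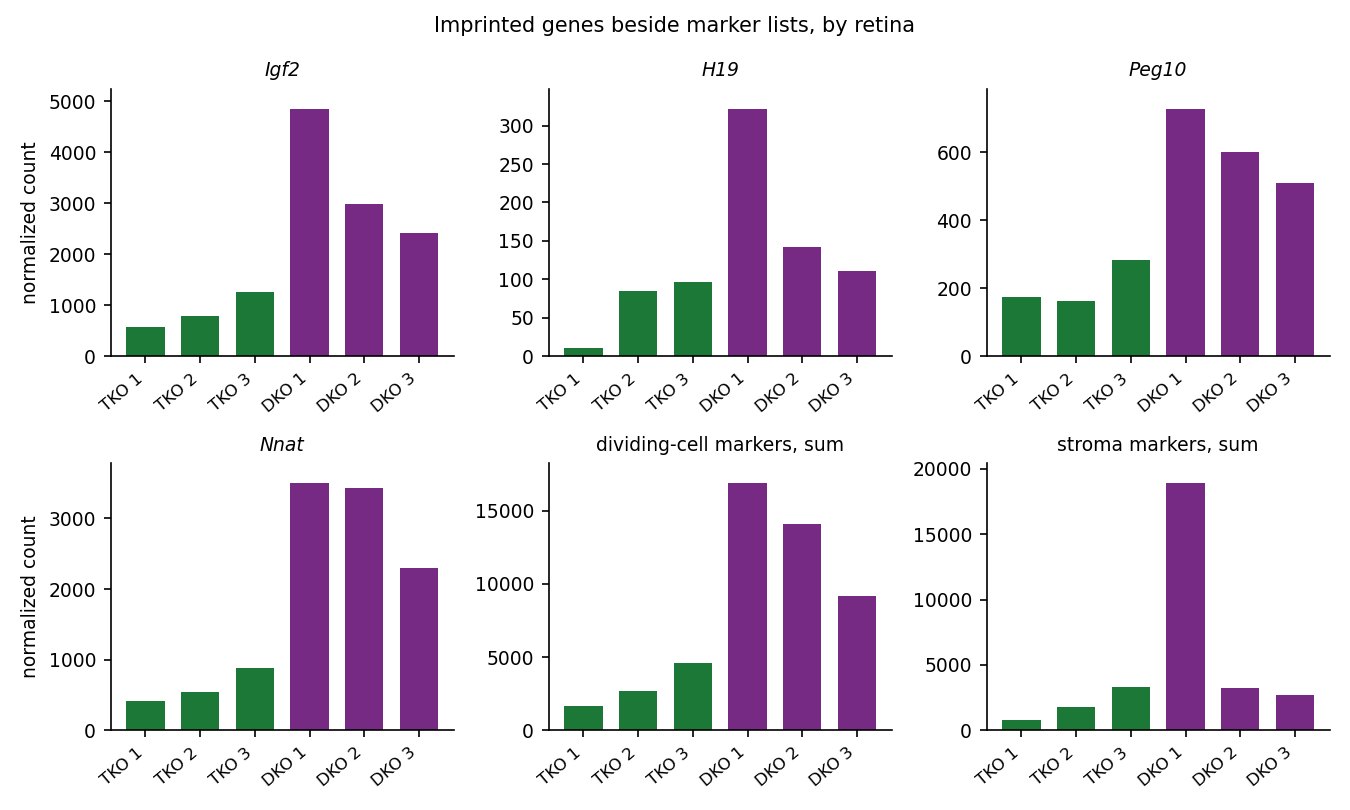
Normalized counts in each retina (TKO green, DKO purple) of Igf2, H19, Peg10 and Nnat and of the summed markers of dividing cells and of stroma, each on its own linear axis from 0. Igf2 and the dividing-cell sum are ordered alike over the 6 retinae, and the stroma sum stands out in DKO replicate 1 at 18906.

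Factors that keep or read imprints were listed as well. Of 16 genes, 14 were tested, and 4 of them were lower and 0 higher in TKO retinae, beside 9.2% lower and 7.35% higher of all genes tested. Uhrf1 had 81.4, 194 and 403 normalized counts in TKO and 1564, 1329 and 811 in DKO replicates 1 to 3 (log2 fold change -2.46, standard error 0.477, edgeR adjusted p = 0.0134). Dnmt1, the maintenance methyltransferase, had a log2 fold change of -0.72 (adjusted p = 0.0163), and Cdca7, which encodes the protein that recruits HELLS to chromatin, had one of -2.24 (adjusted p = 0.0114). Trim28, a corepressor that acts with ZFP57, was at -0.34 (adjusted p = 0.0467). Without overlap between the genotypes, these 4 genes were lower in TKO retinae and another 4 (Ctcf, Arid4a, Arid4b and Dnmt3a) were higher, where all genes tested gave 20.6% and 18%. Uhrf1, Dnmt1 and Cdca7 had the order of the retinae given above for Mki67, as 3.38% of all genes tested did, and Trim28 did not. The part of dividing cells in the differences of these 4 genes was not tested. The other genes of the list, among them the methyltransferase genes Dnmt3a and Dnmt3b, Ctcf, whose protein binds the control region of Igf2 and H19, and Zfp57, did not pass with edgeR (log2 fold changes 0.25, -0.34, 0.09 and -0.96). Zfp57, with an edgeR adjusted p of 0.0616, passed with DESeq2 (adjusted p = 0.00956), with libraries scaled by total counts alone, and without TKO replicate 3 or DKO replicate 3.

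Of 15 genes for ligands, receptors, binding proteins and signaling partners around IGF2, 0 passed with edgeR, 4 had an unadjusted p under 0.05 and 2 passed with DESeq2. Over all genes these shares were 16.6%, 33.1% and 19.6%, in that order. The genes that passed with DESeq2 were Igfbp2, which encodes a secreted IGF binding protein, and Irs1, which encodes a docking protein of the receptors, with log2 fold changes of -0.67 and -0.45 (edgeR adjusted p = 0.0569 and 0.0724). Igf1r, the gene of the main receptor for IGF2, had a log2 fold change of 0.33 (adjusted p = 0.0883). Igf2r, itself imprinted and the receptor that clears IGF2, had one of 0.02 (adjusted p = 0.934).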

How the data were processed

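Total RNA of P21 retinae was made into stranded mRNA libraries and sequenced in pairs. The authors deposited raw counts per gene, with no normalization. Their methods name STAR and HTSeq with up to 3 alignments for a read, and the submitters' processing notes name TopHat2 and featureCounts on GRCm38, so the tools are uncertain. The strand setting of the counting is not given in the sources used here. Groups and replicate numbers came from the sample titles. Nothing in the labels gives the litters, so p-values measure the spread between these 6 retinae.

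Genes with a sum of at least 10 counts were compared with edgeR 4.0.16 (R 4.3.3; TMM scaling, quasi-likelihood F test, Benjamini-Hochberg adjustment over 16904 genes). Each standard error was derived from the fold change and its F statistic. Normalized counts are counts divided by the relative TMM-scaled library size. The test was checked on simulated counts, with large differences planted in well-counted genes and the spread between replicates capped. That setting is easier than these data, so it does not show how the test does for uneven genes such as H19. No library repeated another (chi-square over degrees of freedom at least 8.61 between replicates). Ratios of neighbouring genes used raw counts within a library and two-sided exact permutation tests.

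Places and exon lengths are from GENCODE M21, where 22750 of 24062 symbols were found, which differs from the Ensembl release of the counting. Promoters and microRNAs are from RefSeq tables of GRCm38.p6, which held a window for Igf2, Plagl1 and 6 other genes of the group, and none for Peg10 or H19.

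The 10 genes and all lists were chosen with earlier results of these data known. Named genes were the 10, other imprinted genes that passed, those of the same clusters at a mean of at least 10, listed imprint and IGF genes that passed, and Hells, Rb1 and Rbl1. Igfbp2, Irs1, Igf1r, Igf2r, Zfp57, Dnmt3a, Dnmt3b, Ctcf, Arid4a, Arid4b, Blcap, Ins2, Snurf and Mki67 were named after their values were seen. Alternatives were DESeq2 1.42.0, 3 scalings, 3 filters, robust dispersion, a replicate block, each retina left out, and an adjusted p of at most 0.01.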

Additional observations from a re-analysis of the deposited data

How the results depend on the processing

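Igf2 and Peg10 passed in every alternative but the replicate block, including each fit with a retina left out, with log2 fold changes from -2.32 to -1.63 and from -1.85 to -1.42. With a retina left out, 2 to 3 of the 10 genes passed, Plagl1 being the gene that was lost, and 2 met the study's criteria each time. Over the same fits the other imprinted genes that passed numbered from 2 to 13, against 10 with all retinae (2 without DKO replicate 1 or 2, 3 without TKO replicate 2 and 4 without TKO replicate 1). Those left without DKO replicate 1 or 2 were Igf2os and Nnat. Imprint maintenance genes numbered from 0 to 5, against 4 (0 without TKO replicate 2, DKO replicate 1 or DKO replicate 2, 2 without TKO replicate 1), IGF genes from 0 to 2, against 0, and all genes from 647 to 3590, against 2799. Fewer samples were fitted in these.

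With the threshold at 0.01 there were 2 other imprinted genes, 0 imprint maintenance genes and 561 genes in all. IGF genes numbered 2 with DESeq2, 3 with total counts only and 1 without a filter on low counts. Total counts only moved the median of all genes from -0.01 to -0.17 and the split of all calls from 1243 higher and 1556 lower to 778 higher and 2610 lower.

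The sign of Meg3 turned with total counts only (-0.076), and with a retina left out it ran from -0.18 to 0.38. The sign of Ndn turned without DKO replicate 2, with a range from -0.13 to 0.0039. That of Rbl1 turned with total counts only (-0.036), with a range from -0.15 to 0.36. The causes were not tested. Filters that ask for more counts removed Dlk1 and H19 from some fits.

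The labels do not say whether same-numbered retinae share a litter or a day. Deviations from the group means correlated at 0.07, -0.04 and -0.16 between same-numbered retinae. These correlations gave no sign of pairing but cannot exclude it, because other differences between retinae can hide it. With the replicate block 0 of the 10 genes, 0 other imprinted genes, 0 imprint maintenance genes, 0 IGF genes and 106 genes in all passed, and 0 of the 10 met the study's criteria. Igf2 then had an adjusted p of 0.0631, Peg10 of 0.0566 and Plagl1 of 0.0859 (edgeR), with log2 fold changes of -1.97, -1.59 and -0.57.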
